A study of Mus musculus with 9 samples.

Results

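The gene described here is Myc (ENSMUSG00000022346), 1 row of the 5301 genes in a deposited table of RNA-seq values from 6DT1 cells, and it was chosen by its name in all 9 libraries. 6DT1 is a mouse mammary tumor cell line, syngeneic to FVB/NJ, that was derived from an MMTV-Myc tumor, in which the mouse mammary tumor virus promoter drives a Myc transgene in mammary epithelium. The cells carried a lentiviral scramble hairpin (shControl), hairpin H4 against Resf1 (shH4) or hairpin H6 against Resf1 (shH6), and all 3 groups were kept in 10 ug/ml puromycin. RNA was taken 24 h after seeding from 3 dishes of each transduced line, so hairpin and line cannot be told apart and the spread between libraries is that between dishes of 1 line. One row holds the reads of the Myc transgene and of the endogenous gene together. The table is a selected one: all 5301 genes moved the same way under both hairpins and all passed the test of the mean change described below, so a listed gene had to differ from shControl and the passing of that test says nothing particular to Myc. No gene outside it was analysed here.

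MYC is a basic helix-loop-helix leucine zipper transcription factor that binds DNA as a heterodimer with MAX, most often at the E-box CACGTG. It raises the transcription of genes for ribosome assembly, nucleotide synthesis, metabolism and entry into the cell cycle, while MXD proteins compete for MAX and repress the same sites. Its mRNA and protein are both short-lived, and in mammary epithelium its forced expression gives adenocarcinomas. The comparison made here is of Myc, and of genes around it, between the Resf1 knockdown and shControl lines.

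The hairpin guides are shown because they define the groups, and because a guide can act on other transcripts through its seed, bases 2 to 8 from the 5′ end, given in capitals.
H4: tTTCGATTtgtaacataggtc
H6: aAACAACCaagttacctcagg
Each matched Resf1 in full in the GENCODE M21 annotation of GRCm38, as shown here on the sense strand with the seed site in capitals.
H4 site: gacctatgttacaAATCGAAa
H6 site: cctgaggtaacttGGTTGTTt
The H4 site lies in coding exon 3 of Resf1-201 (GRCm38 chr6:149327436-149327456, plus strand), and the H6 site lies in its 3′ UTR in exon 5 (chr6:149335414-149335434, plus strand). The Myc transcript used here, Myc-201 (GRCm38 chr15:61985391-61990350, plus strand), has 3 exons and 2338 bases, of which 531 are 5′ UTR, 1365 are coding for 454 residues and 442 are 3′ UTR. Neither seed site occurred in Myc-201, with 0 sites for H4 and 0 for H6. The longest stretch of Myc-201 complementary to a guide was 8 bases for H4 and 6 bases for H6. Over the 4667 listed genes with a 3′ UTR, 1.92% held the H4 seed site and 11.3% held the H6 seed site there.

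Resf1 itself checked the labels. Its normalized counts were 1591, 1553 and 1610 in the shControl libraries. They were 976, 953 and 1016 in shH4 and 1120, 1113 and 1130 in shH6. All 6 knockdown libraries were below all 3 shControl libraries, and the shH4 libraries were all below the shH6 libraries. On the log2(value + 1) scale Resf1 fell by 0.69 (SE 0.043, limma adjusted p = 2.34e-09) in shH4 and by 0.50 (SE 0.043, limma adjusted p = 8.72e-08) in shH6, a difference of 0.19 between hairpins (95% CI 0.10 to 0.28, limma adjusted p = 0.00984).

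Myc mRNA was lower in both Resf1 knockdown lines. In shControl its normalized counts were 10456, 11958 and 12063, with a mean of 11492 ± 899 (SD, n = 3). In shH4 they were 8481, 9205 and 9249, with a mean of 8978 ± 431 (SD, n = 3). In shH6 they were 8911, 8792 and 10350, with a mean of 9351 ± 867 (SD, n = 3). The shH4 libraries lay well below shControl, whereas shH6 replicate 3 stood beside the lowest shControl library, replicate 1, at a gap of 106 normalized counts or 1.01%. In every library the depth was ample for Myc: an estimated 8300 to 15302 reads gave a counting error of 0.808% to 1.10%, against a spread between libraries of 7.82% in shControl, 4.80% in shH4 and 9.27% in shH6. In shControl and shH6 that spread was wide among listed genes, of which 80.3% and 82.7% varied less, while in shH4 it was near the median of 4.29%.

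**Figure D1:**
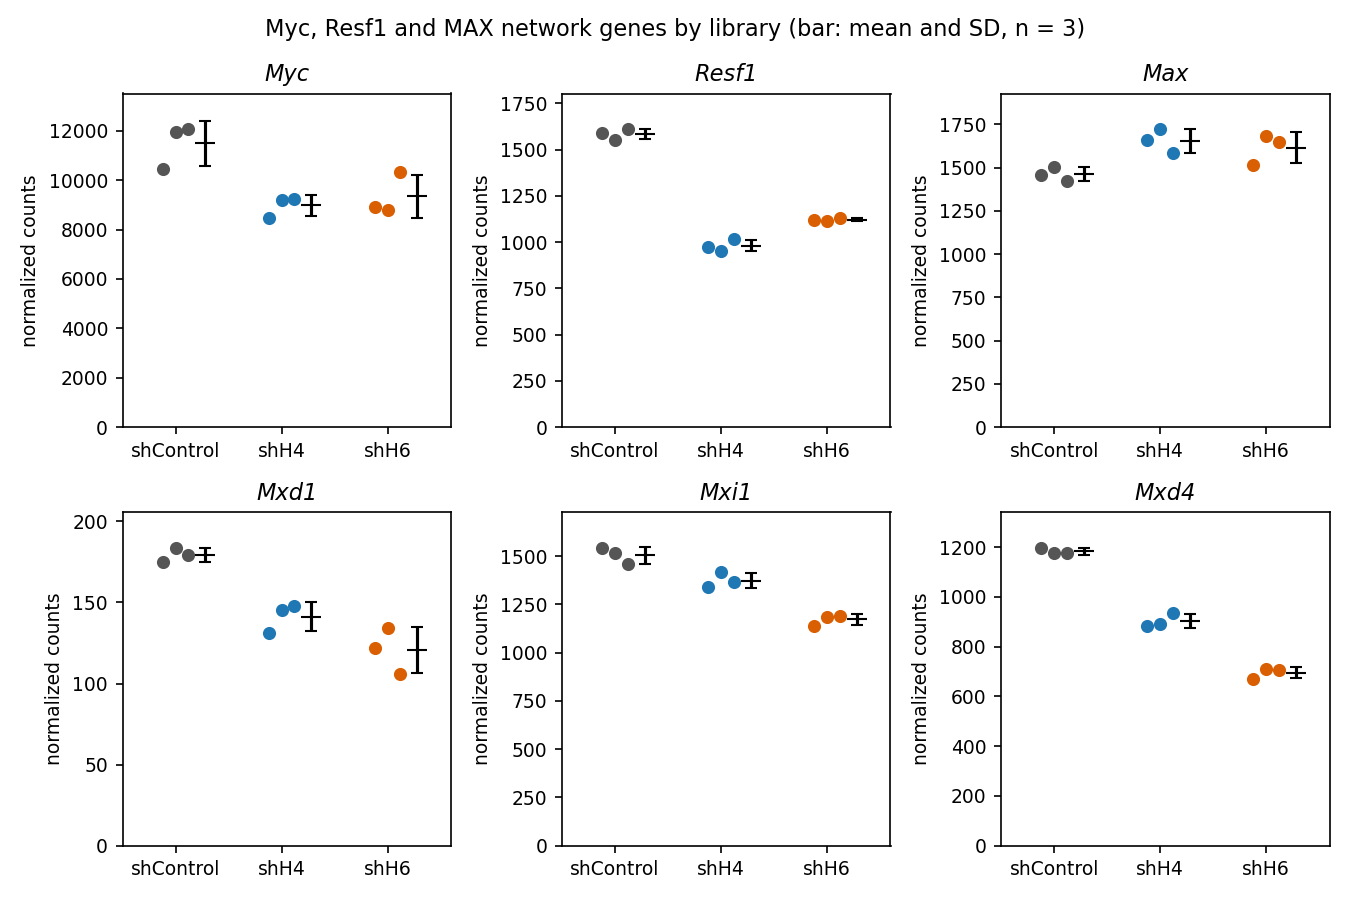
Normalized counts (y axis from 0) of Myc, Resf1 and 4 MAX network genes in each library (points, replicates 1 to 3 from left to right) by group, with the group mean and SD as a bar (n = 3). All Myc points of shH4 lie below shControl, shH6 replicate 3 at 10350 sits just under shControl replicate 1 at 10456, and Mxd4 falls further in shH6 than in shH4.

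The change in Myc was -0.35 (SE 0.061, 95% CI -0.48 to -0.23, limma adjusted p = 8.04e-05) in shH4, where the mean normalized count was 21.9% below that of shControl. The change was -0.30 (SE 0.061, 95% CI -0.43 to -0.17, limma adjusted p = 0.000332) in shH6, where the mean normalized count was 18.6% below. Under the same test 95.7% of listed genes were called in shH4 and 96.1% in shH6. Those called lower were 46.5% and 46.9% of all listed genes. In these terms the call on Myc was what the table holds for nearly every gene. The median change over all listed genes was 0.10 in shH4 and 0.09 in shH6, so Myc was below the middle of the table in both.

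The mean of both hairpins gave -0.33 (SE 0.052, 95% CI -0.44 to -0.22, limma adjusted p = 3.28e-05), and 100% of listed genes were called in that contrast. Over libraries alone, the exact two-sided permutation test gave p = 0.1 for each hairpin with 3 against 3, the smallest value that size allows. For the 6 knockdown against the 3 shControl libraries the exact permutation p was 0.0238, also the smallest possible, because the groups did not overlap. Of all listed genes, 42.8% had all 6 knockdown libraries below all 3 shControl libraries. For single hairpins, 45.7% of listed genes lay below shControl without overlap in shH4 and 45.5% in shH6. The separation of Myc hung on shH6 replicate 3: when each column was divided by its total over listed genes, Myc was 793 CPM of listed reads there and 769.6 CPM in shControl replicate 1. On that scale 5 of 6 knockdown libraries were below all shControl libraries (exact permutation p = 0.0476 for both hairpins and p = 0.2 for shH6). With shH6 replicate 3 left out, the change in shH6 was -0.37.

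Between the hairpins Myc did not differ beyond the spread. shH6 was 0.06 above shH4 on the log2 scale (95% CI -0.07 to 0.18, limma adjusted p = 0.656, exact permutation p = 0.7). The difference took the other sign, -0.02, without shH6 replicate 3. Of all listed genes 8.26% were called between the hairpins, Resf1 among them.

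Set beside Resf1 library by library, Myc fell by less. As a percent of the shControl mean, Myc stood at 73.8, 80.1 and 80.5 in shH4 while Resf1 stood at 61.6, 60.2 and 64.1. In shH6 Myc stood at 77.5, 76.5 and 90.1 while Resf1 stood at 70.7, 70.2 and 71.3. The ratio of Myc to Resf1 normalized counts was 6.57, 7.70 and 7.49 in shControl, 8.69, 9.66 and 9.11 in shH4, and 7.96, 7.90 and 9.16 in shH6. Resf1 is the target of the hairpins, so a higher ratio in the knockdown libraries is nothing particular to Myc. Resf1 formed 3 separate clusters with 3 libraries each, so no correlation over the 9 libraries was taken. In each group replicate 3 had both the most Resf1 and the most Myc, and in shH6 both genes had the same order over the 3 libraries. The spans were unequal there: Resf1 went from 1113 to 1130 while Myc went from 8792 to 10350.

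**Figure D2:**
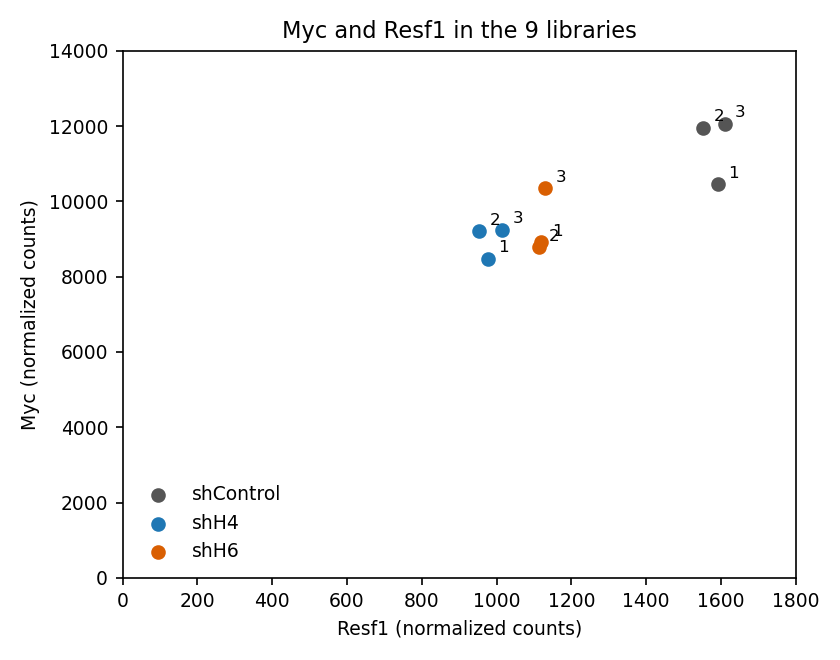
Myc against Resf1 (normalized counts, both axes from 0) in the 9 libraries, numbered by replicate and colored by group. Resf1 forms 3 clusters with no overlap between groups, while the Myc values of shH4 and shH6 overlap.

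Myc was among the highest of the listed genes. Per kb of transcript (normalized counts divided by the length of the longest annotated transcript) it stood at 4916 ± 385 (SD, n = 3) in shControl, 17.1 times the median of 288 over the 5258 listed genes with a length and 18.8 times Resf1 at 261. Its rank per kb was 236 to 270 in the shControl libraries, 284 to 313 in shH4 and 251 to 308 in shH6. The shH4 libraries ranked lower than every shControl library, and the shH6 ranks overlapped those of shControl. Next to it in shControl were Rps10-ps1, a pseudogene named for a ribosomal protein, at 4988 per kb, Rpl38, a ribosomal protein of the large subunit, at 4953 and Hnrnpa2b1, an RNA-binding protein, at 4924. Just under it came Rpl31, another large-subunit protein, at 4911, mt-Nd5, a mitochondrial complex I subunit, at 4905 and Myl12b, a myosin light chain, at 4862. All 6 were within the SD of Myc, though reads of ribosomal protein genes can be shared with near-identical pseudogenes, which makes those levels uncertain. Max, its obligate partner, had 753 per kb, so that Myc was 6.52 times higher than Max.

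**Figure D3:**
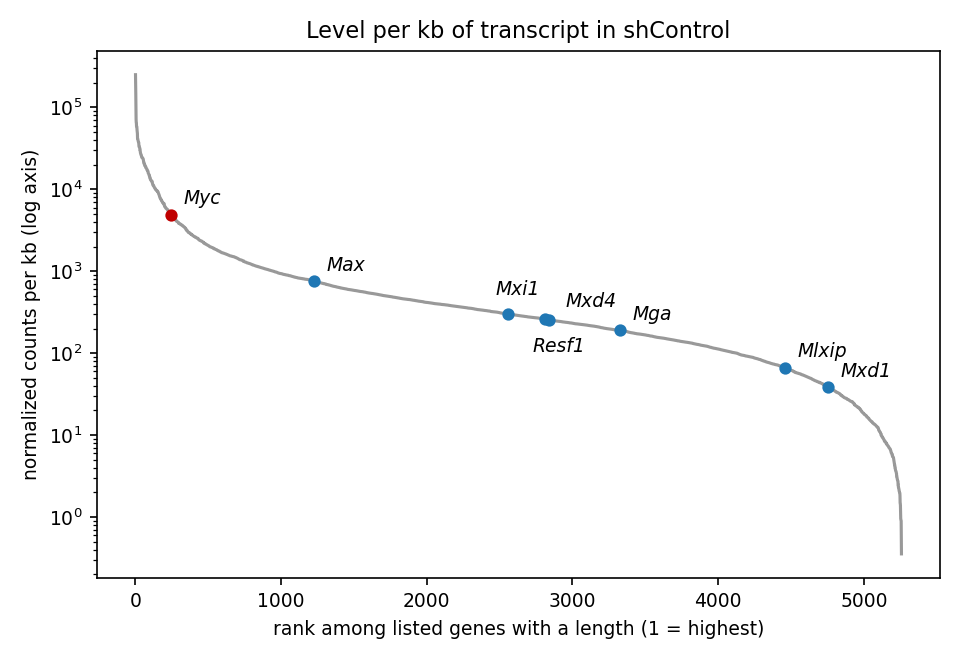
Level in shControl (normalized counts per kb of transcript, log axis) against rank for the 5258 listed genes with a length (grey line), with Myc in red and Resf1 and the MAX network in blue. Myc ranks 246 at 4916 per kb, above Max at 753 and far above Mxd1 at 38.4.

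Of the 13 genes of the MAX network, 6 were listed, and the 3 listed MXD repressors were lower in both lines. Mxd4, an MXD repressor, had 1197, 1175 and 1175 normalized counts in shControl, 882, 890 and 933 in shH4 and 672, 710 and 705 in shH6. The 3 groups did not overlap, and the fall was 0.39 in shH4 and 0.77 in shH6 (limma adjusted p = 3.16e-06 and 2.56e-09). Mxi1, a repressor of the same family, fell by 0.13 and 0.36 (limma adjusted p = 0.00956 and 2.68e-06), and Mxd1 fell by 0.34 and 0.57 (limma adjusted p = 0.00661 and 0.000153). Max rose by 0.18 and 0.14 (limma adjusted p = 0.00288 and 0.0104), and Mga, a MAX partner found in a Polycomb complex, rose by 0.19 and 0.11 (limma adjusted p = 0.00046 and 0.0131). The rises of Max and Mga in shH6 did not pass with upper quartile scaling (0.09 and 0.06), nor did Max without shH6 replicate 2 (0.11) or Mga without shControl replicate 2 (0.07) or with median ratio scaling (0.08). With upper quartile scaling the rise of Max in shH4 was 0.12. Mlxip, a glucose-responsive factor that pairs with MLX in place of MAX, rose by 0.33 in shH6 (limma adjusted p = 0.00386) and was 0.17 higher in shH4 (limma adjusted p = 0.0896), a value of 0.08 without shControl replicate 1 and 0.23 without shControl replicate 2, where it passed, as it also did without shH6 replicate 3 (0.17), with only the groups compared (0.17) and with the GC trend removed (0.22). Without shH6 replicate 3 its rise in shH6 was 0.21. In counts, shH4 raised 2 of the 6 and lowered 3, and shH6 raised 3 and lowered 3, beside 49.2% higher and 46.5% lower of all listed genes in shH4 and 49.1% and 46.9% in shH6.

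The mRNAs of the proteins MYC recruits were higher where they were listed. Of 20 cofactor genes 11 were listed, and 9 rose in shH4 and 11 in shH6 with 0 lower, at medians of 0.29 and 0.31, beside 49.2% and 49.1% higher and medians of 0.10 and 0.09 over all listed genes. Trrap, the scaffold of histone acetyltransferase complexes, rose by 0.43 and 0.41, and Hcfc1, a chromatin adaptor that binds MYC, rose by 0.35 and 0.38. Of 26 genes acting on MYC protein turnover 16 were listed, of which 11 rose and 5 fell in shH4 while 10 rose and 5 fell in shH6. That is 68.8% and 62.5% higher and 31.2% lower in each, where 46.5% and 46.9% of all listed genes were lower. Set, an inhibitor of the phosphatase PP2A, rose by 0.32 and 0.31, and Plk1, a mitotic kinase, rose by 0.31 and 0.30. Pim1, a kinase that phosphorylates MYC, fell by 0.42 and 0.59, and Fbxo32, a ubiquitin ligase subunit known from muscle wasting, fell by 0.71 and 0.94. Fbxw7, the ubiquitin ligase subunit that marks MYC for degradation, fell by 0.32 and 0.16; it was singled out after its values were seen. The count of turnover genes higher in shH4 was 6 in place of 11 with upper quartile scaling. Under that scaling 2041 of all 5301 listed genes were called higher in shH4, in place of 2610.

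Genes acting on Myc transcription or on its mRNA were mainly higher where they were listed. Of 36 genes in the first list 17 were listed, with 16 higher in shH4, 14 higher in shH6 and 1 lower in each, so that 94.1% and 82.4% rose where 49.2% and 49.1% of all listed genes did. Fubp1, which binds the far upstream element of the Myc promoter, rose by 0.35 and 0.42, and Maz, a zinc finger protein that binds the Myc promoter, rose by 0.40 and 0.45. The gene that fell was Notch1, a receptor that activates Myc in several tumors. Its normalized counts were 1062, 1152 and 1238 in shControl, 548, 674 and 625 in shH4 and 882, 815 and 1061 in shH6. Notch1 fell by 0.90 in shH4 and by 0.33 in shH6, a difference of 0.57 (95% CI 0.39 to 0.76, limma adjusted p = 0.000622). With upper quartile scaling the count of transcription genes higher in shH4 was 9 in place of 16, and that of all 5301 listed genes was 2041 in place of 2610. Of 27 genes for proteins that bind Myc mRNA or act in its decay 12 were listed, and all 12 rose in both lines, against those same shares of all listed genes, at medians of 0.28 and 0.26. Upf1, the helicase of nonsense-mediated decay, rose by 0.45 and 0.47, and Hnrnpd, a binder of AU-rich elements, rose by 0.30 and 0.40, the first being 0.19 without shControl replicate 1.

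Genes that MYC is known to activate were mostly higher where they were listed, while Myc mRNA was lower. Of 66 such genes 42 were listed. In shH4 39 rose and 3 fell, and in shH6 39 rose and 2 fell, which is 92.9% higher in each line beside 49.2% and 49.1% of all listed genes. The medians were 0.21 and 0.22 beside 0.10 and 0.09 over all listed genes. With upper quartile scaling 32 rose in shH4 and 36 in shH6, beside 2041 and 2133 of all 5301 listed genes. Cdc25a, a phosphatase that opens the cell cycle, had 694, 814 and 755 normalized counts in shControl, 1129, 1024 and 1074 in shH4 and 1037, 1000 and 1087 in shH6. All its knockdown libraries were above shControl, as in 43.5% of listed genes, by 0.51 and 0.47 (limma adjusted p = 2.11e-06 and 5.3e-06). Mcm5, a subunit of the replicative helicase, rose by 0.43 and 0.52 (limma adjusted p = 1.2e-07 and 1.63e-08).

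The members that fell were few. Mthfd2, a mitochondrial folate enzyme also induced by ATF4 in the amino acid response, fell by 0.51 and 0.45 (limma adjusted p = 1.14e-07 and 4.29e-07). Slc7a5, a transporter of large neutral amino acids under the same control, fell by 0.40 and 0.28 (limma adjusted p = 8.77e-06 and 0.000203). Npm1, a nucleolar chaperone singled out after its values were seen, fell by 0.09 in shH4 and was at -0.08 in shH6, where it did not pass, and its counts are uncertain since it has near-identical pseudogenes.

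Genes that MYC is known to repress were mostly lower where they were listed. Of 29 such genes 12 were listed, with 2 higher and 10 lower in each line at medians of -0.31 and -0.40. The share lower was 83.3% in each, beside 46.5% and 46.9% of all listed genes. Cdkn1a, the cell cycle inhibitor p21 that p53 also induces, had 1416, 1543 and 1525 normalized counts in shControl, 908, 917 and 899 in shH4 and 892, 906 and 998 in shH6. It was lower in all 6 knockdown libraries, by 0.72 and 0.68 on the log2 scale (limma adjusted p = 1.24e-08 and 2.09e-08). Ndrg1, a stress-responsive gene, fell by 0.91 and 0.63, and differed between the hairpins by 0.29 (95% CI 0.18 to 0.39, limma adjusted p = 0.00168). Gas1, a growth arrest gene at 94.9 to 112 normalized counts in shControl, rose by 0.73 and 0.64, and Cdkn2c, the CDK inhibitor p18, rose by 0.26 and 0.34.

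**Figure D4:**
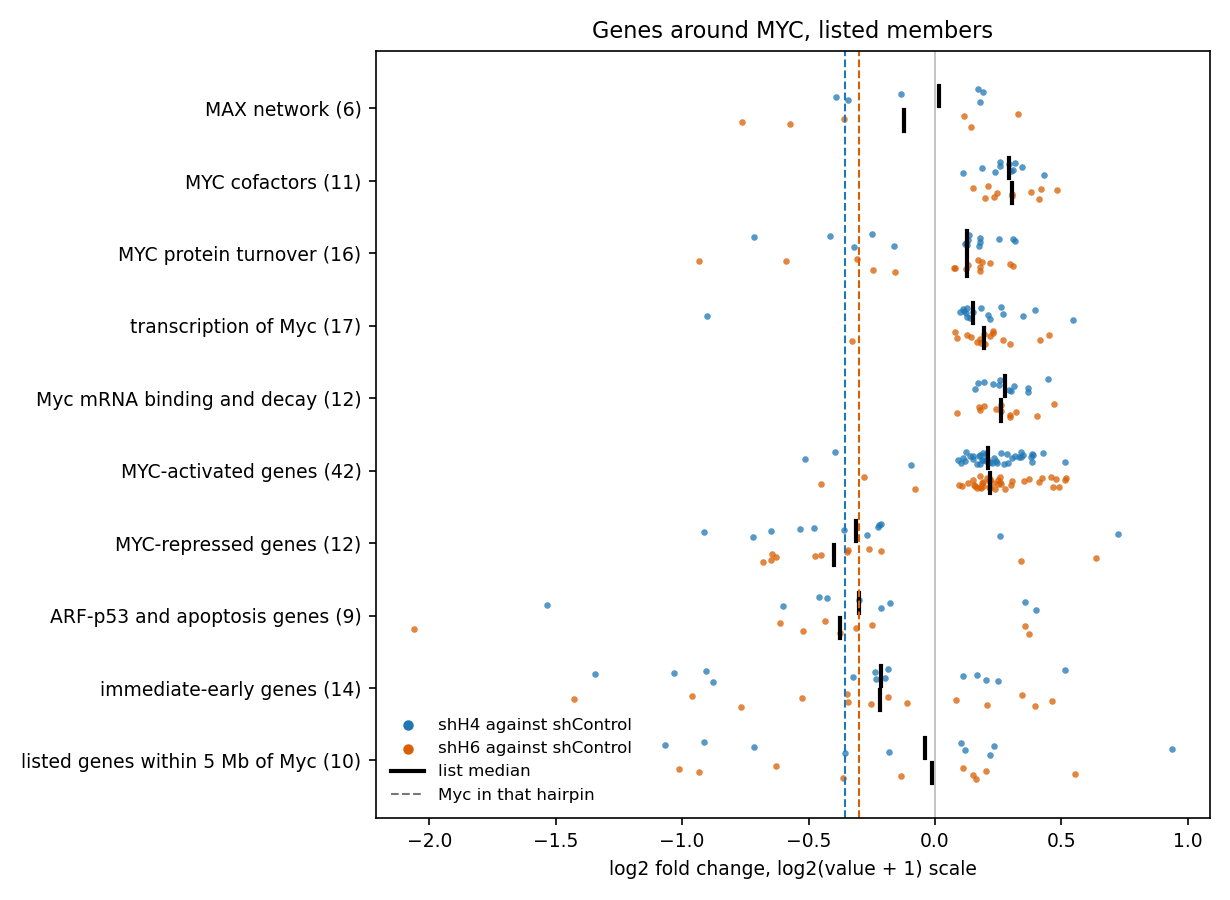
Log2 fold change on the log2(value + 1) scale (x axis) of each listed member (point) of 10 gene lists around MYC, for shH4 and shH6 against the same shControl libraries, with the list median as a black bar, the number listed in brackets and the change of Myc as a dashed line. Of the 42 MYC-activated genes 39 are called higher in each hairpin, and of the 12 MYC-repressed genes 10 are called lower in each, while Myc itself is at -0.35 and -0.30.

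Of 20 genes of the ARF-p53 and apoptosis pathways, inducers and inhibitors together, 9 were listed. In each line 2 were higher and 7 lower, or 77.8% lower where 46.5% and 46.9% of all listed genes were. The 7 included the p53 inhibitor Mdm2, which fell by 0.21 and 0.38, and the apoptosis inhibitor Bcl2, which fell by 0.30 and 0.25. Trp53 itself rose by 0.40 and 0.37, and Bak1, a mitochondrial pore former, rose by 0.35 and 0.36. Pmaip1 (NOXA), a p53 target present at only 15.4 to 21.1 normalized counts in shControl, changed by -1.54 and -2.06 (-0.86 and -1.05 with a pseudocount of 10), and Bbc3 (PUMA) fell by 0.60 and 0.52. Of 30 immediate-early genes, which respond with Myc to growth signals, 14 were listed, with 4 higher and 9 lower, or 64.3% lower, in each line. Atf3, a stress factor, fell by 1.34 and 1.43, and Btg2, an antiproliferative p53 target, fell by 0.91 and 0.96. Srf, the factor that drives the class, rose by 0.51 and 0.34, and Jun rose by 0.20 and 0.21.

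Around the Myc locus no listed gene lay near. In the annotation 48 protein-coding genes fell within 5 Mb of Myc and 0 within 1 Mb. The listed genes within 5 Mb, taken without regard to gene type, numbered 10. Of these, 5 rose and 5 fell in shH4, while 3 rose and 5 fell in shH6, shares of 50% lower in each beside 46.5% and 46.9% of all listed genes. The count higher in shH4 was 3 without shControl replicate 1 or 2 or shH4 replicate 1 or 3. With upper quartile scaling it was 2 in shH4 and 1 in shH6, beside 2041 and 2133 of all 5301 listed genes. Ndrg1, 4939 kb away, and Fbxo32, 3770 kb away, fell as given above, while Atad2, a MYC-associated ATPase 3850 kb away, rose by 0.23 and 0.20, and Rnf139, a ubiquitin ligase 3078 kb away, rose by 0.12 and 0.15. The rise of Rnf139 in shH4 did not pass without shControl replicate 2 (0.12) or 3 (0.10), without shH4 replicate 1 (0.10) or 2 (0.12), with upper quartile (0.06) or median ratio scaling (0.08) or with the GC trend removed (0.07). Its rise in shH6 did not pass with upper quartile scaling (0.10).

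Sequence features of Myc were set beside those of the other listed genes, since the study also asked about guanine runs able to form G4 quadruplexes in exons. A run set was counted as 4 runs with at least 2 G each and loops of 1 to 7 bases, on the spliced sense or antisense strand. Myc-201 held 3 such sets on the sense and 14 on the antisense strand, 7.27 per kb against a median of 4.90 over listed genes, of which 74.2% were below Myc. Both strands held a set in 91.4% of listed genes. With runs of at least 3 G it held 0 sense and 1 antisense set, and 37.3% of listed genes held any. The following coding sets are shown, with the G runs in capitals, because they are the sense sets of coding exons 2 and 3 and the antisense set of exon 2 with the longest runs at both ends.
Exon 2 sense: GGcGGcGGtGG
Exon 3 sense: GGGccaagttGGacagtGGcaGGG
Exon 2 antisense: GGGGctcaGGGctGGcccgtGGGG
They lie at GRCm38 chr15:61987786-61987796 on the plus strand, chr15:61989559-61989582 on the plus strand and chr15:61988210-61988233 on the minus strand. These matches are letters in a transcript and not measured structures.

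The E-box CACGTG, which reads the same on both strands, was searched in RefSeq promoter windows from 250 bases before to 50 after each start site (GRCm38.p6). A gene was counted once if any of its windows held the E-box. It was present in 8.09% of all genes with a window and in 450 or 12% of the 3765 listed genes with one. The share was 12% of those called higher by both hairpins and 12.3% of those called lower by both. Among listed MYC-activated genes with a window 7 of 35 held it, and among listed MYC-repressed genes 1 of 10. Windows around the E-box of members described above are shown, with the E-box in capitals, since these are the letters that MYC-MAX and MXD-MAX dimers are known to recognise.
Max: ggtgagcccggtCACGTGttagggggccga
Mxd4: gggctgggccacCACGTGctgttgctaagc
Cdkn2c: ttgctgaataatCACGTGtgaatcgagg
Their positions are chr12:76962234-76962263, chr5:34187912-34187941 and chr4:109665323-109665350, all on the minus strand. Max rose and Mxd4 fell with the same 6 letters in the window.

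The genes whose pattern was most like Myc over the 9 libraries on the log2 scale were Jup (plakoglobin, a junction protein, Pearson r = 0.982), Dop1b (0.975), Slc7a5 (0.973), Ptprs (a receptor tyrosine phosphatase, 0.972) and Gm4740 (0.970). By the deviations from group means, which leave out the change between groups, they were Tcof1 (a nucleolar factor for ribosomal RNA, 0.997), Ints1 (an Integrator subunit, 0.983), 2900026A02Rik (0.981), Zfp335 (0.981) and Adgrg1 (an adhesion receptor, 0.975), over 9 libraries with 6 degrees of freedom. Of these, Tcof1, Ints1, 2900026A02Rik and Zfp335 were higher in both knockdown lines (0.16 to 0.29), opposite to Myc, and their r over the 9 libraries was -0.47 to -0.22. In shH4 Tcof1 did not pass without shControl replicate 1 (0.08) or shH4 replicate 2 or 3 (0.14 each), with upper quartile (0.10) or median ratio scaling (0.13) or with no trend (0.16), and Zfp335 did not pass without shControl replicate 1 (0.14) or with upper quartile scaling (0.11). These are descriptions of the highest among 5301 genes and share the libraries and their depth. All 10 had transcripts of 54.4% to 61.2% GC, and Myc-201 had 53.3%, above 68.2% of listed genes, whose median was 49.9%.

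The GC balance of the libraries differed between shControl and the knockdown lines, as Myc did. Each listed gene was taken as its log2 difference from its mean over all libraries. The median of the GC-richest quartile of these genes minus that of the GC-poorest was 0.18, 0.13 and 0.19 in shControl. It was -0.12, 0.01 and -0.07 in shH4 and -0.05, -0.03 and 0.02 in shH6. Every shControl library was thus above every knockdown library. Within groups the order was mixed: shH6 replicate 3 had the most Myc and the highest balance of its group, but shControl replicate 1, with the least Myc of its group, was above replicate 2, and in shH4 the highest balance was in replicate 2 and the most Myc in replicate 3. With the trend on GC content removed from each library, the change in Myc was -0.30 in shH4 (limma adjusted p = 0.000308) and -0.25 in shH6 (limma adjusted p = 0.00139), and shH6 replicate 3 was then above shControl replicate 1. The GC balance and the hairpin cannot be told apart in these libraries.

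**Figure D5:**
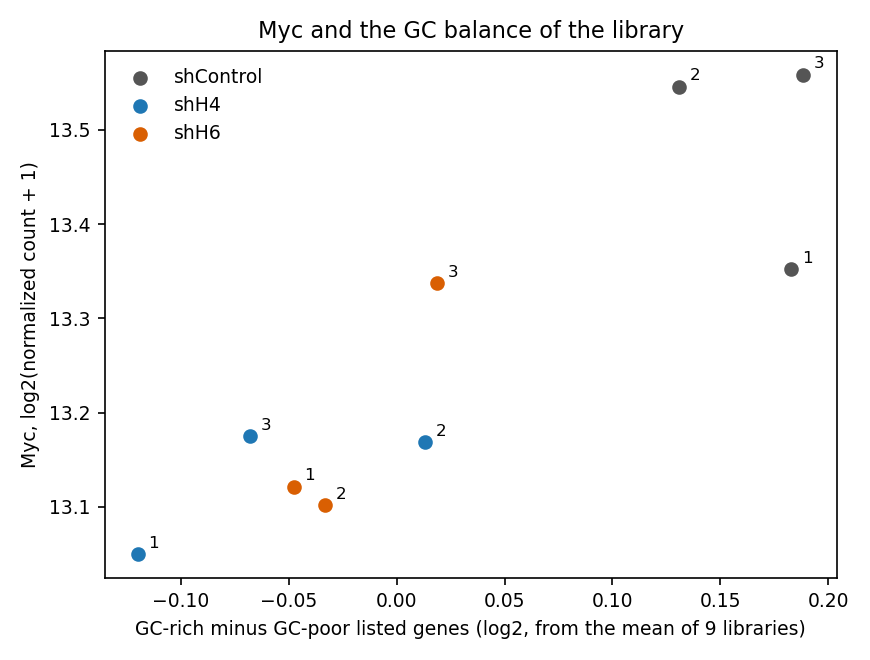
Myc as log2(normalized count + 1) (y axis) against the log2 difference between GC-rich and GC-poor listed genes in each library, taken from the mean of 9 libraries (x axis), numbered by replicate and colored by group. The 3 shControl libraries lie at 0.13 to 0.19 on the x axis and all 6 knockdown libraries at 0.02 or below.

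The libraries differed in depth. Estimated reads over listed genes were 10.5 to 19.9 M, with size factors from 0.802 to 1.46. Of 10 mammary epithelial markers 2 were listed, the luminal keratins Krt8 and Krt18, present in all 9 libraries, whose summed normalized counts were 26580 to 29000 in shControl, 22390 to 23860 in shH4 and 24790 to 27870 in shH6. Of 7 mesenchymal markers Zeb1 and Zeb2 were listed, with sums of 2471 to 2635, 2520 to 2710 and 2510 to 2585. Zeb1 fell by 0.11 and 0.13 (limma adjusted p = 0.0171 and 0.0102) while Zeb2 rose by 0.34 and 0.24 (limma adjusted p = 7.61e-05 and 0.00117). Of 6 macrophage markers only Cd68 was listed, at 608 to 668, 197 to 245 and 191 to 234. In these bulk libraries fewer cells of a type and less RNA per cell cannot be told apart, and the part of these marker levels in the change of Myc was not tested.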

How the data were processed

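RNA of 6DT1 cells (shControl, shH4, shH6, 3 libraries each, RIN above 7) was sequenced as stranded total RNA. Per the submitters' processing notes and methods, the authors aligned reads with STAR 2.7.8a to mm39 in Partek Flow, normalized gene counts by median ratio and tested with DESeq2. The deposited values are therefore a normalized count signal and not whole reads. The rule by which the 5301 genes were selected is not given in the sources used here. Read steps were recovered from values under 150 (72.3% to 77.3% whole within 0.02 reads) to estimate depth. These estimates cover counting error only.

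Log2(value + 1) of all listed genes was fitted with limma 3.58.1 in R 4.3.3 (trended empirical Bayes, 1 mean per group, all 9 libraries), with Benjamini-Hochberg adjustment over 5301 genes and a threshold of 0.05. The script was tested on simulated data. Exact two-sided permutation tests over libraries used Python 3.11.15 and scipy 1.17.1. No count test was run. Fold changes are on the log2(value + 1) scale. Genes of 10 lists were named by rule: all listed MAX network members, the 2 highest and 2 lowest non-overlapping genes called by both hairpins in each other list, 3 genes on either side of Myc in level, and the 5 most like Myc by each measure of likeness. Members, lists and tests were chosen with earlier results of these data known. Both hairpin comparisons share the shControl libraries. Transcript lengths and sequences came from GENCODE M21 on GRCm38, another build than that of the alignment, and served for lengths (levels per kb), GC content, letters and neighbors; 5258 genes matched. Alternatives were scaling by upper quartile, column total or median ratio, pseudocounts of 0.5 and 10, a minimum of 10, library weights, no trend, only the groups compared, a replicate block, each library left out and, added after seeing the data, removal of the GC trend.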

Additional observations from a re-analysis of the deposited data

Results flagged for a closer look

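Of 52 named genes, 5 changed by a different amount under the 2 hairpins by limma's test of shH6 against shH4, in which 8.26% of listed genes were called. For Resf1 the shH6 libraries were 0.19 above those of shH4 on the log2 scale (limma adjusted p = 0.00984). Notch1 was 0.57 higher (limma adjusted p = 0.000622), having fallen in both lines. Ndrg1 was 0.29 higher (limma adjusted p = 0.00168), again after a fall in both. The MXD repressors went the other way: Mxd4 was at -0.37 (limma adjusted p = 0.000113) and Mxi1 at -0.23 (limma adjusted p = 0.00344) in shH6 against shH4. Myc was not among the 5, at 0.06 (95% CI -0.07 to 0.18).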

How the results depend on the processing

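Over 20 alternatives, 300 of 304 values of the Myc and Resf1 comparisons, the ranks, the permutation test and the counts of activated and repressed genes kept their direction and side of the threshold. The change in Myc ran from -0.42 to -0.30 in shH4 and from -0.37 to -0.25 in shH6, with limma adjusted p up to 0.00382 and 0.00777. Leaving out 1 library at a time gave -0.42 to -0.31 for shH4, -0.37 to -0.26 for shH6, -0.39 to -0.29 for the mean of both and -0.02 to 0.10 for shH6 against shH4, where the sign turned (-0.019, limma adjusted p = 0.882) without shH6 replicate 3. The exact permutation p over libraries ran from 0.0357 to 0.0714, the latter without any 1 shControl library, where it is the smallest that 6 against 2 allows. Over all listed genes same-numbered libraries did not deviate together (correlations -0.15 to 0.11), and the main fit did not pair them. For Myc itself replicate 1 lay below and replicate 3 above the group mean in every group. With the replicate block Myc was again at -0.35 and -0.30 (limma adjusted p = 6.58e-06 and 2.97e-05), with an SE of 0.044 in place of 0.061. Genes called between hairpins were then 405 in place of 438. That count was 684 with library weights, 290 without shH4 replicate 1 and 287 without shH6 replicate 1; the cause was not tested.

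With upper quartile scaling, which shifted the median change by -0.06 and -0.05, genes called higher fell from 3 to 1 in the MAX network in shH6, from 11 to 6 in turnover, from 16 to 9 in transcription (10 with median ratio scaling) and from 5 to 2 among neighbors in shH4, and from 3 to 1 among neighbors in shH6. Over all listed genes those called higher with this scaling were 2041 in place of 2610 in shH4 and 2133 in place of 2605 in shH6. The neighbors called higher in shH4 also dropped, to 3, with no trend, with the GC trend removed and without shControl replicate 1 or 2 or shH4 replicate 1 or 3. The other named genes gave 1998 values, 1965 on the same side and 0 reversed. Depth does not limit Myc, whose libraries vary more than counting does, but 3 dishes of 1 line per hairpin do, and so does a table that lists changed genes alone.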
